A study of Mus musculus with 10 samples.

Results

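The 78 genes described here encode proteins of the mitochondrial ribosome. They were chosen by name and annotation, as protein-coding genes of the mouse genome GRCm38 with a symbol that starts with Mrpl (large subunit series) or Mrps (small subunit series) followed by a digit and without the pseudogene suffix, out of 55421 genes in the count table. Their RNA was measured in 10 libraries of myeloid cells from young adult mice at day 15 after subcutaneous implantation of MC17-51 fibrosarcoma cells. All mice carried floxed alleles of Ptpn11, which encodes the phosphatase SHP-2 (Shp2f/f). Shp2f/fLysMcre mice carried in addition Cre recombinase under the lysozyme M promoter, so deletion is limited to cells that use this promoter and the controls differ from them by the Cre allele. Myeloid-derived suppressor cells (MDSC), taken from the spleen with magnetic beads as GR-1+ cells, gave 2 libraries per genotype. The study's methods give them as polymorphonuclear MDSC (GR1hi Ly6G+ Ly6C-). Tumor-associated macrophages (TAM), sorted from the tumor as CD45+ CD11b+ F4/80+ Ly6G- cells, gave 3 libraries per genotype. Whether a library held 1 mouse or pooled mice was not given in the sources used here. Per the study's methods both cell types were taken from the same mice, but the labels do not say which libraries share a mouse, so libraries were treated as independent and the p-values measure the spread between these libraries.

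Mitochondria make a small set of respiratory chain proteins on ribosomes of their own. The ribosomal RNA of this mitochondrial ribosome comes from mitochondrial DNA, whereas its proteins are encoded in the nucleus, made in the cytosol and imported. Some of the proteins descend from those of the bacterial ribosome and others are found only in mitochondria. Of the members, 51 were classed with the large subunit, which joins the amino acids, and 26 with the small subunit, which reads the messenger. Mrps36 was placed in neither, because its protein is known as a part of the 2-oxoglutarate dehydrogenase complex. Mrps18a and Mrps30 were classed with the large subunit, where their proteins sit in the mammalian particle. By origin, 45 were classed with a bacterial homolog, 31 as specific to mitochondria and 2 were left unassigned. Mrps18a and Mrps18b were counted among the 31, although both are related to the bacterial protein S18, so this split is approximate. The genes lay on 17 chromosomes, with 11 on chromosome 11 and 8 on chromosome 17.

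Total counts per library lay between 28844660 and 38222998, and the members took 0.200% to 0.326% of them. In TAM, Ptpn11 stood at 121, 125 and 121 CPM (counts scaled to a common library size) in Shp2f/f and at 50.9, 54.2 and 53.9 CPM in Shp2f/fLysMcre, and its log2 fold change was -1.24 (SE 0.039, adjusted p = 2.96e-09 by the quasi-likelihood test of edgeR). In MDSC it stood at 113 and 99.2 CPM against 94.8 and 79.7 CPM, and the log2 fold change of -0.29 did not pass (adjusted p = 0.361). Lyz2, the locus that carries Cre, fell by 8.33 on the log2 scale in TAM and by 7.68 in MDSC. The loss of Lyz2 transcripts moved with the genotype, so its part and that of the Ptpn11 deletion cannot be told apart. The summed level of 10 macrophage markers was 10802 to 14977 CPM of the total count in TAM and 2293 to 2925 in MDSC. That of 10 neutrophil markers was 9974 and 9639 in MDSC Shp2f/f, 30282 and 26146 in MDSC Shp2f/fLysMcre, and 2293 to 4591 in TAM. Both labels had their markers, and the neutrophil sum in MDSC moved with the genotype. The female-specific transcript Xist was at 0.03 CPM in both MDSC Shp2f/f libraries and at 119 and 132 CPM in MDSC Shp2f/fLysMcre, and at 4.82 to 18.1 against 209 to 372 CPM in TAM. Transcripts of the Y-linked gene Ddx3y were at 50.6 and 54.8 CPM against 22.3 and 27.8 CPM in MDSC, and at 81.8 to 85.6 against 38.6 to 44.7 CPM in TAM, so the Shp2f/fLysMcre libraries held both Xist and Y-linked transcripts. These levels moved with the genotype in both cell types, so the sex makeup of the libraries and the genotype cannot be told apart. The part of sex in the genotype comparisons was not tested.

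Promoters of the members were read from RefSeq windows (GRCm38.p6, 250 bases before to 50 bases after the start), which held 69 of the 78 genes. Sites for the nuclear factors NRF1, ETS family members such as GABP, and YY1 are known from nuclear genes for mitochondrial proteins, so their letters were searched on both strands together with those of Sp1, the TATA box and the E-box. The ETS letters CCGGAAG were in 26 of 69 members (37.7%), against 9.93% of all 27025 genes with a window and 19.8% of those tested in TAM. The YY1 letters AAGATGGC were in 12 members (17.4%, against 3.19% of all genes and 5.25% of those tested), and the NRF1 letters GCATGCGC were in 8 (11.6%, against 3.05% and 5.79%). The Sp1 letters GGGCGG were in 34 members (49.3%), above the 38.2% of all genes and below the 66.8% of those tested. The TATA letters TATAAA were in 5 (7.25%, against 15.7% and 9.03%) and the E-box letters CACGTG in 5 (7.25%, against 8.09% and 11.5%). These are matches of letters, not measured binding. Printed here are the 120 bases nearest to the RefSeq start that no GENCODE exon covers, for Mrps6 and Mrpl12, the genes with the largest falls in TAM, for Mrps22, a member with an ETS match and a large fall, for Mrpl9, a member with 2 overlapping NRF1 matches in such bases, and for Mrps24, whose fitted change between the TAM genotypes was the smallest. Capitals mark matches of the letters above on either strand, which run together where they share bases.
Mrps6: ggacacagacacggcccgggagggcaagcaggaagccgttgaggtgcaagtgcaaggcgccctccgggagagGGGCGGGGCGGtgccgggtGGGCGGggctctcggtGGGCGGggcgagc
Mrpl12: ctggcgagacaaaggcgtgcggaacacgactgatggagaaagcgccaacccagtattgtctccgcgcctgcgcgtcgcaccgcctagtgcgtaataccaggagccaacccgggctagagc
Mrps22: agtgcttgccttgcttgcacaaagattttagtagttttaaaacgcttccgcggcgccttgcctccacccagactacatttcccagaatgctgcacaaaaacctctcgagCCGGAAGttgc
Mrpl9: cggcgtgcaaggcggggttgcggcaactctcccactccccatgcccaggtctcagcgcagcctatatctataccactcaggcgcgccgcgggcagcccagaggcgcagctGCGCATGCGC
Mrps24: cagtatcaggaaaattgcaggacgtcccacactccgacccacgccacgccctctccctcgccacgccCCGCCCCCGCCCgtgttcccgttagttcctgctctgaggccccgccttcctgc

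The stretches lie at chr16:92058150-92058269 (plus strand) for Mrps6, chr11:120484493-120484612 (plus) for Mrpl12, chr9:98601680-98601799 (minus) for Mrps22, chr3:94443198-94443317 (plus) for Mrpl9 and chr11:5707702-5707821 (minus) for Mrps24. Neither Mrps6 nor Mrpl12 had the NRF1, ETS or YY1 letters in its whole window. A pair of members, Mrps11 of the small and Mrpl46 of the large subunit, lies head to head on chromosome 7 with 41 bases between the RefSeq starts. In the GENCODE exons the pair overlaps on opposite strands, over 8.0% of the exon bases of Mrps11 and 12.2% of those of Mrpl46.

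In TAM the mitochondrial ribosomal protein genes were lower in Shp2f/fLysMcre than in Shp2f/f as a group. Of 77 members that passed the filter on low counts, 59 fell and 0 rose at an adjusted p under 0.05 (edgeR quasi-likelihood test on 3 against 3 libraries, adjusted over all genes). Among the 14446 genes tested, 26.3% were called lower and 23.9% higher, 50.2% in all. At an unadjusted p under 0.05 stood 63 members, beside 55.7% of all genes. The fitted log2 fold change was below 0 for all 77 members and for 51.6% of all genes. The DESeq2 size factors and the DESeq2 test moved 1 of the 77, Mrps24, just above 0, and offsets for GC content and length left 74 below 0. The falls were small, with a median log2 fold change of -0.24 against -0.01 over all genes and quartiles of -0.32 and -0.18. The genotypes did not overlap, with Shp2f/fLysMcre the lower, in 53 of the 77 members and in 27.2% of all genes.

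The summed level of the 78 genes was 2658, 2695 and 2647 CPM of the total count in TAM Shp2f/f and 2200, 2081 and 1999 in TAM Shp2f/fLysMcre. The genotypes did not overlap in this sum. In MDSC the sum was 2771 and 3114 CPM in Shp2f/f and 2590 and 3264 in Shp2f/fLysMcre, and the genotypes overlapped. After TMM scaling, which the tests used, the sum in TAM was 2626 ± 51.1 CPM against 2263 ± 141 CPM (SD, n = 3), still without overlap, and in MDSC 2677 and 3021 CPM against 2519 and 2989 CPM. In bulk RNA, fewer cells of a type and less RNA per cell cannot be told apart.

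**Figure D1:**
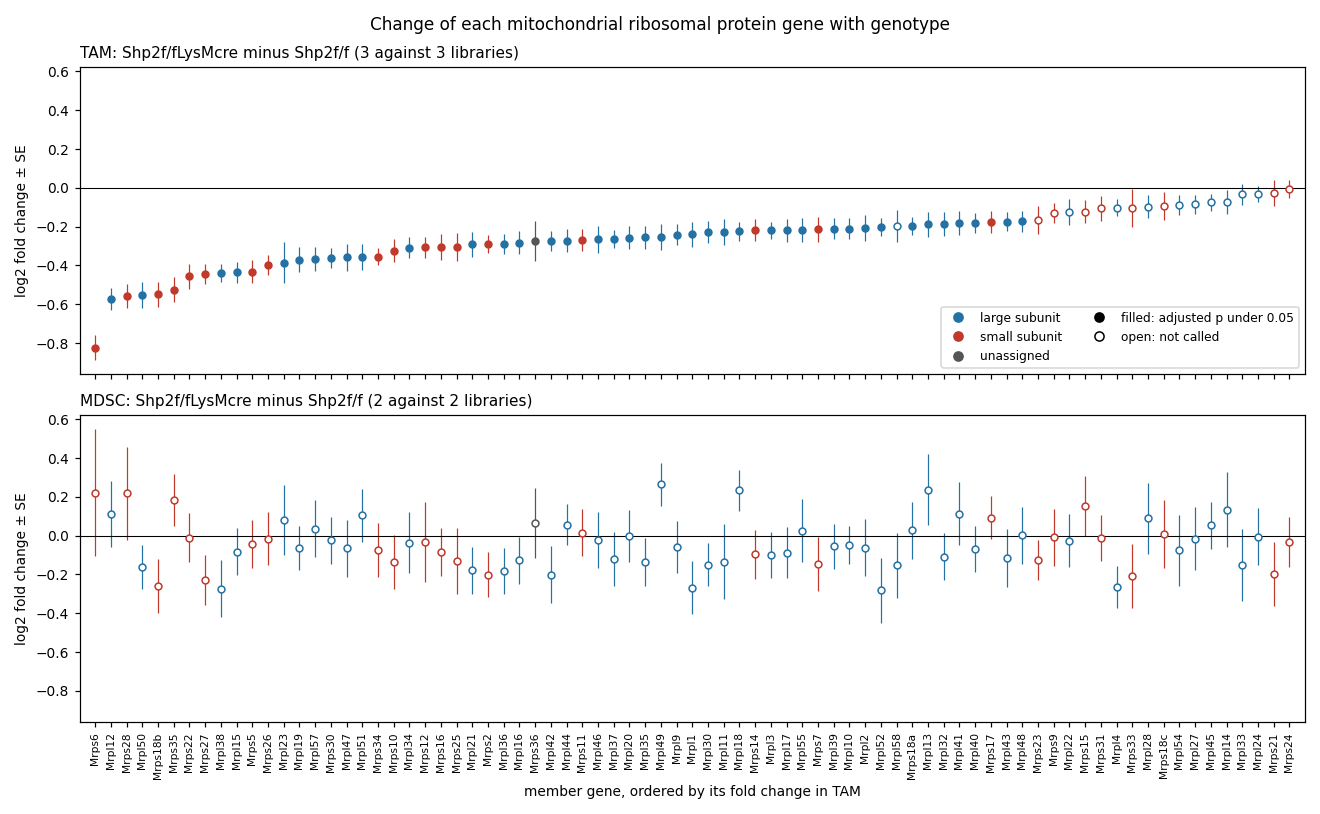
Log2 fold change of Shp2f/fLysMcre minus Shp2f/f for each member (points, with bars of 1 SE from edgeR) in TAM (top) and MDSC (bottom), ordered by the value in TAM; color gives the subunit class and a filled point an adjusted p under 0.05. All 77 points of the top panel are below 0 and 59 are filled, whereas the points of the same 77 genes in the bottom panel lie on both sides of 0 and none is filled (Mrpl53, tested in MDSC only, is not drawn).

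Mrps6, a small subunit protein with a bacterial homolog (chromosome 16, 92058270 to 92112227), had the largest fall. Its level (CPM after TMM scaling) was 18, 17.8 and 17.6 in TAM Shp2f/f and 11, 10.2 and 9.63 in Shp2f/fLysMcre, a log2 fold change of -0.82 ± 0.06 (SE, adjusted p = 1.36e-06, edgeR). The groups were far apart, and the Shp2f/fLysMcre libraries stood at 56.5% of the control by the fit. Of its exon bases, 19.9% are shared on the same strand with Slc5a3, which encodes an inositol transporter, and with the gene model Gm49711. Slc5a3 was at 17.1, 15.9 and 17.5 CPM in Shp2f/f and 7.66, 9.57 and 9.85 CPM in Shp2f/fLysMcre, a log2 fold change of -0.94 ± 0.09, and how reads of the shared bases were assigned was not tested.

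Mrpl12, whose protein forms the stalk of the large subunit to which translation factors bind, was next. Its level was 88.3, 85.5 and 90.5 CPM in Shp2f/f and 66.2, 58.4 and 57.3 CPM in Shp2f/fLysMcre, a log2 fold change of -0.57 ± 0.06 (adjusted p = 7.72e-06, edgeR). Mrps28, of the small subunit, stood at 22.7, 26.3 and 24.0 CPM against 16.9, 16.3 and 17.7 CPM, a log2 fold change of -0.56 ± 0.06. For Mrpl50, a large subunit protein specific to mitochondria, the levels were 31.2, 34.3 and 31.1 CPM against 24.5, 22.5 and 20.3 CPM, a log2 fold change of -0.55 ± 0.07. Each of these genes had its lowest Shp2f/f library above its highest Shp2f/fLysMcre library.

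Mrps18b, 1 of 3 mammalian relatives of the bacterial ribosomal protein S18, was at 24.0, 21.6 and 22.6 CPM in Shp2f/f and 15.1, 17.1 and 15.5 CPM in Shp2f/fLysMcre, a log2 fold change of -0.55 ± 0.06 (adjusted p = 3.18e-05, edgeR). Of the other 2, Mrps18a fell by 0.20 on the log2 scale (SE 0.05, adjusted p = 0.00404), and Mrps18c had -0.10 ± 0.07 and did not pass (adjusted p = 0.297). Mrps18c shares 23.2% of its exon bases with the gene model Gm43511. The small subunit genes Mrps35 (-0.52 ± 0.06), Mrps22 (-0.46 ± 0.07) and Mrps27 (-0.44 ± 0.05) completed the 8 largest falls, so that 6 of the 8 encode small subunit proteins. Mrps27 encodes a protein with RNA-binding pentatricopeptide repeats.

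At the other end, Mrps24, of the small subunit, was at 30.5, 31.5 and 30.0 CPM in Shp2f/f and 32.6, 30.1 and 31.3 CPM in Shp2f/fLysMcre, a log2 fold change of -0.0060 ± 0.05 (adjusted p = 0.929, edgeR). Mrps21 was at 26.1, 27.1 and 25.5 CPM against 29.2, 25.9 and 23.9 CPM, and the genotypes overlapped. Mrpl24 was at 62.2, 60.3 and 62.1 CPM against 62.9, 62.7 and 59.4 CPM. The genotypes overlapped in all 3 of these genes. Mrpl33 was at 36.8, 37.0 and 34.4 CPM against 37.2, 37.5 and 33.5 CPM, and Mrpl14 at 21, 22 and 20.3 CPM against 22, 19.2 and 20.5 CPM. Mrpl45, which anchors the ribosome at the inner membrane near the exit of the peptide tunnel, had -0.07 ± 0.04, and Mrpl27 and Mrpl54 had -0.09 each. None of these 8 passed.

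**Figure D2:**
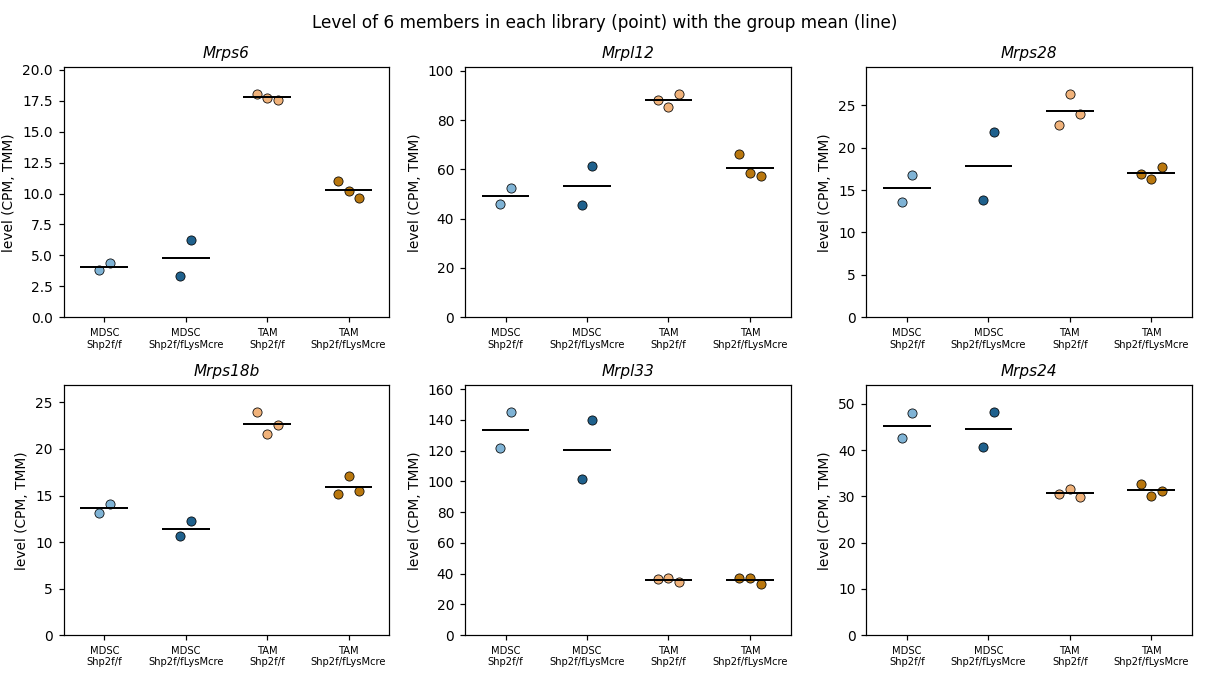
Level (CPM after TMM scaling, y axis from 0) of 6 members in each of the 10 libraries (points) with the mean of each group (line). Mrps6, Mrpl12, Mrps28 and Mrps18b are lower in all 3 TAM Shp2f/fLysMcre libraries than in the 3 TAM Shp2f/f libraries, Mrps24 is not, and Mrpl33 is higher in the 4 MDSC libraries, at 102 to 145 CPM, than in the 6 TAM libraries, at 33.5 to 37.5 CPM.

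Both subunits took part in TAM. Of 50 large subunit genes tested, 40 fell, with a median log2 fold change of -0.23, and of 26 small subunit genes 18 fell, with a median of -0.30. By origin, 33 of 45 genes classed with a bacterial homolog fell (median -0.22). Of 30 genes classed as specific to mitochondria 24 fell (median -0.26), with Mrps18a and Mrps18b among the 24. Mrps12, which encodes a protein of the decoding center, fell by 0.31 (SE 0.05, adjusted p = 0.00071), and Mrpl58, whose protein can release peptides from stalled ribosomes, had -0.20 ± 0.08 and did not pass (adjusted p = 0.0667). Mrps36 fell by 0.28 (SE 0.10, adjusted p = 0.044). The head-to-head pair had -0.27 ± 0.06 for Mrps11 and -0.27 ± 0.07 for Mrpl46, and both fell. Both values were near the median of all members, -0.24, and how reads of their shared bases were assigned was not tested. Members with the ETS letters had a median log2 fold change of -0.22 (25 genes, 17 called lower) and those without had -0.24 (43 genes, 35 called lower).

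Other lists of mitochondrial translation genes were counted in TAM in the same way, beside the 26.3% of all genes called lower and 23.9% called higher. Of 5 mitochondrial ribosomal proteins with other symbols, 4 fell. Ptcd3, a small subunit protein with pentatricopeptide repeats, was at 45.8, 45.7 and 43.9 CPM in Shp2f/f and 29.4, 28 and 28.9 CPM in Shp2f/fLysMcre, a log2 fold change of -0.68 ± 0.04 (adjusted p = 4.03e-07, edgeR). Gadd45gip1 (-0.42 ± 0.06), Chchd1 (-0.32 ± 0.05) and Dap3 (-0.20 ± 0.07) also fell, and Aurkaip1 had -0.02 ± 0.05 and did not pass. Of 26 assembly factors, 9 fell and 1 rose, with a median of -0.12, a share lower that is near the background. The largest fall among them was that of Noa1, a GTPase of small subunit assembly, with -0.73 ± 0.07, and the rise was that of Rbfa, which binds the immature small subunit, with 0.24 ± 0.06. Of 12 translation factors, 7 fell (median -0.23), among them the elongation factor Tufm (-0.37 ± 0.06) and its exchange factor Tsfm (-0.43 ± 0.06). Of 17 mitochondrial tRNA synthetases, 11 fell (median -0.30), with the methionyl enzyme Mars2 lowest at -0.90 ± 0.09.

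The RNA partners of the members come from mitochondrial DNA. Of 13 protein genes of mitochondrial DNA, 8 were tested in TAM, and 3 fell (mt-Cytb, mt-Nd4 and mt-Nd5). Their summed level was 9902, 9877 and 10479 CPM of the total count in Shp2f/f and 5236, 8470 and 8882 in Shp2f/fLysMcre, where replicate 1 stood apart as the lowest. Neither mitochondrial ribosomal RNA passed (0 of 2), and these RNAs are only partly captured by poly(A) selection. Of 8 genes for maintenance and transcription of mitochondrial DNA, 5 fell, among them the helicase Twnk (-0.54 ± 0.07), the polymerase Polrmt (-0.31 ± 0.06) and the packaging factor Tfam (-0.25 ± 0.06). Of 8 tested regulators of mitochondrial gene expression, 2 fell, the coactivators Ppargc1b (-0.51 ± 0.06) and Pprc1 (-0.49 ± 0.06), which is also a share near the background. Of the factors named for the promoter letters, Nrf1, Gabpa and Yy1 were in this list and did not pass, with Nrf1 at -0.03 ± 0.05, Gabpa at -0.11 ± 0.04 (adjusted p = 0.0508, edgeR) and Yy1 at 0.06 ± 0.05.

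The fall in TAM was shared by other lists of abundant housekeeping genes. Of 76 cytosolic ribosomal protein genes 73 fell, with a median log2 fold change of -0.32, and of 75 nuclear genes for subunits of oxidative phosphorylation 53 fell, with a median of -0.21. These counts, beside 59 of 77 for the members, do not set the mitochondrial ribosome apart. Proliferation markers fell in 22 of 22 cases with a median of -0.76, and their summed level was 2219 to 2249 CPM of the total count in Shp2f/f and 1236 to 1307 in Shp2f/fLysMcre. Markers of the other cell types also moved with the TAM genotypes. All 10 macrophage markers rose, and their sum was 10802 to 11153 CPM in Shp2f/f and 14392 to 14977 in Shp2f/fLysMcre. The sum of the 10 neutrophil markers was 4363 to 4591 CPM against 2293 to 2349, of which most was Mmp9. Of 9 neutrophil markers tested Mmp9 fell and 5 rose, and Ly6g was near 0 CPM in all TAM libraries. The sum of 6 T cell markers was 10.8 to 12.9 CPM against 5.70 to 5.75, with 5 of 6 called lower. The sum of 8 pancreas genes was 846 to 6686 CPM in Shp2f/f and 5.89 to 73.9 in Shp2f/fLysMcre, and 5 of 5 tested were called lower. Without TAM Shp2f/f replicate 3, which held the most pancreas transcripts, 51 members fell and the median was -0.23, while 3223 of all genes fell. The part of proliferation and of the other markers in the change of the members was not tested.

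**Figure D3:**
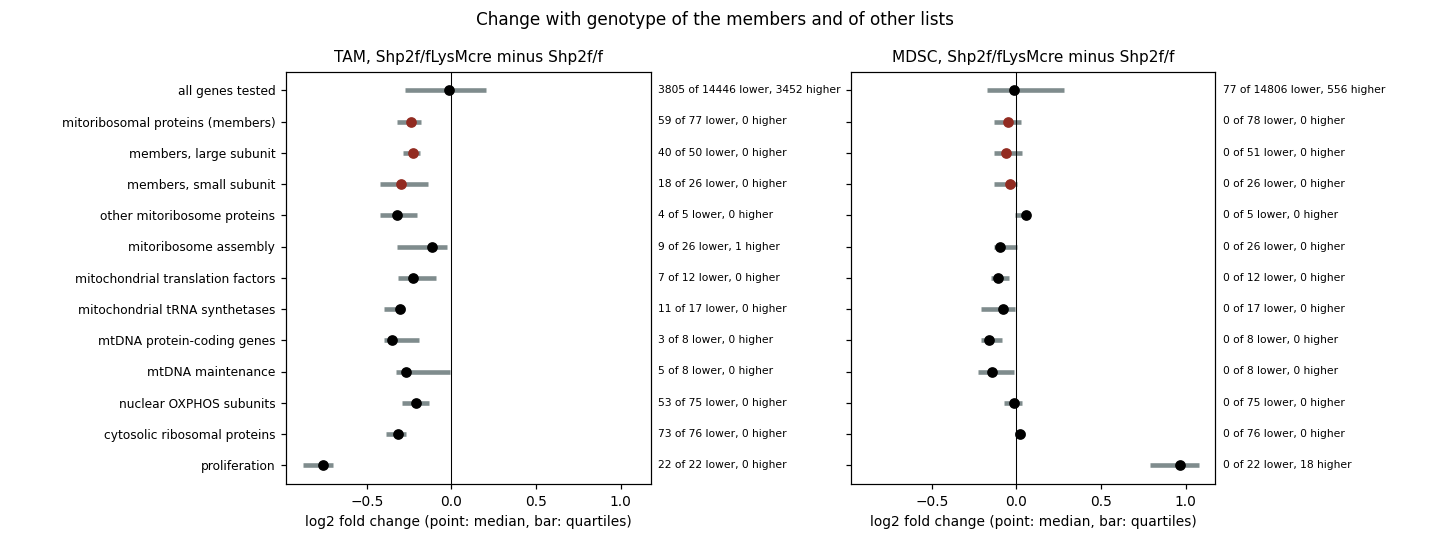
Median (point) and quartiles (bar) of the log2 fold change of Shp2f/fLysMcre minus Shp2f/f over the tested genes of each list in TAM (left) and MDSC (right), with the number called at an adjusted p under 0.05 at the right of each row; members are in red. In TAM the median of the members, -0.24, lies between those of the nuclear oxidative phosphorylation genes, -0.21, and of the cytosolic ribosomal proteins, -0.32, and in MDSC it is -0.05.

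**Figure D4:**
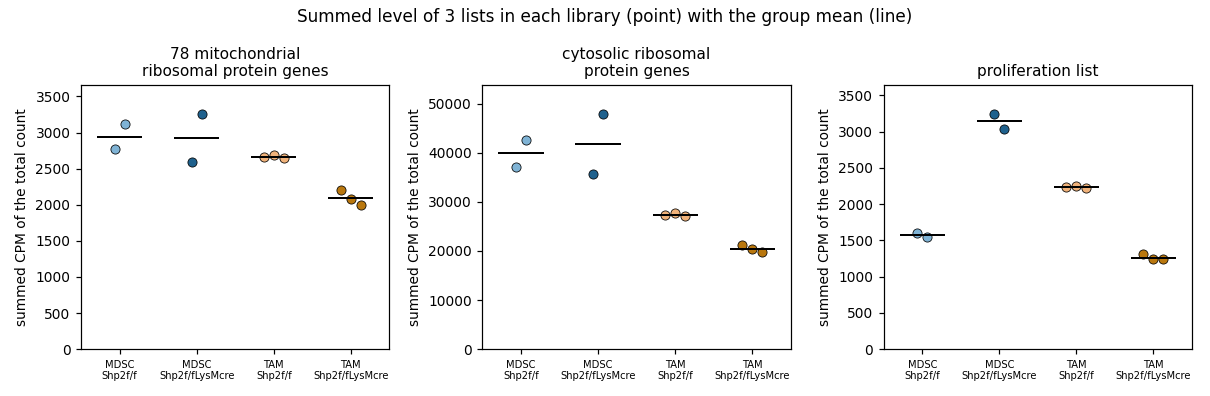
Summed CPM of the total count (y axis from 0) over the 78 members, the cytosolic ribosomal protein genes and the proliferation list in each library (points) with the group mean (line). In TAM all 3 sums are lower in Shp2f/fLysMcre with no overlap of the genotypes, and in MDSC the proliferation sum is higher in Shp2f/fLysMcre, at 3030 and 3248, than in Shp2f/f, at 1551 and 1607.

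In MDSC no member was called between the genotypes. Of 78 tested, 0 passed in either direction (edgeR quasi-likelihood test on 2 against 2 libraries), and 0 had an unadjusted p under 0.05. Among all 14806 genes tested, 4.28% were called, 3.76% higher and 0.52% lower, and 19.3% had an unadjusted p under 0.05. The DESeq2 test also called 0 members, with 1 at an unadjusted p under 0.05. Leaving out each library in turn, which left 1 in a group, moved the median of the members between -0.16 and 0.026. The lowest, -0.16, was without MDSC Shp2f/fLysMcre replicate 2, beside -0.01 over all genes. The median log2 fold change was -0.05 against -0.01 over all genes, and the values ran from -0.28 to 0.26 with 54 below 0 (52.2% of all genes). The spread between libraries was larger here, with a biological coefficient of variation of 0.189 in MDSC and 0.0595 in TAM, so a change of the size seen in TAM may not be detectable in MDSC at this replication.

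The lowest member in MDSC was Mrpl52, of the large subunit, at 83.9 and 97.3 CPM in Shp2f/f and 64.3 and 85.5 CPM in Shp2f/fLysMcre, a log2 fold change of -0.28 ± 0.17 (adjusted p = 0.449, edgeR). Mrpl38 was at 31.2 and 37.1 CPM against 25.9 and 31.0 CPM, and Mrpl1 at 26.2 and 29.1 CPM against 20.9 and 25.2 CPM. Mrpl4, at the wall of the peptide tunnel, was at 82.7 and 87.9 CPM against 68.2 and 74.5 CPM, with -0.26 ± 0.11 (adjusted p = 0.271, edgeR), and its genotypes did not overlap. Mrps18b was at 13.1 and 14.1 CPM against 10.6 and 12.3 CPM. Mrps27 (-0.23 ± 0.13), Mrps33 (-0.21 ± 0.16) and Mrps2 (-0.20 ± 0.12) followed.

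The highest value in MDSC was that of Mrpl49, a large subunit protein specific to mitochondria, at 21.8 and 23.5 CPM in Shp2f/f and 26.9 and 27.7 CPM in Shp2f/fLysMcre, a log2 fold change of 0.26 ± 0.11 (adjusted p = 0.279, edgeR). Mrpl13 was at 24.9 and 28.6 CPM against 26.5 and 36.9 CPM. Mrpl18 was at 59.3 and 63.2 CPM against 69.7 and 75.2 CPM, with 0.23 ± 0.11. Among these, Mrpl49 and Mrpl18 had no overlap between the genotypes, and Mrpl13 did. Mrps6 was at 3.80 and 4.36 CPM against 3.33 and 6.24 CPM, and Mrps28 at 13.6 and 16.8 CPM against 13.8 and 21.9 CPM, both with the Shp2f/fLysMcre pair enclosing or overlapping the control pair. Mrps35 (0.18 ± 0.13), Mrps15 (0.15 ± 0.16) and Mrpl53 (0.15 ± 0.56) followed. Non-overlapping genotypes were seen in 3 members with higher and 12 with lower values in Shp2f/fLysMcre, against 24.9% and 24% of all genes.

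Of the genes named for their roles, Mrps18a had 0.03 ± 0.15, Mrps18c 0.0091 ± 0.18, Mrpl12 0.11 ± 0.17, Mrpl58 -0.15 ± 0.17, Mrps12 -0.03 ± 0.21 and Mrps36 0.07 ± 0.18 in MDSC on the log2 scale, and none passed. None of the 5 mitochondrial ribosomal proteins with other symbols passed either, with log2 fold changes from -0.17 to 0.09, nor did any of 26 assembly factors, 12 translation factors or 17 tRNA synthetases. In the same libraries 18 of 22 proliferation markers rose (median 0.97), as did 8 of 10 erythroid and 5 of 10 neutrophil markers. The part of these in the values of the members was not tested. Across the 77 members tested in both cell types, which is a relation across genes and not across replicates, the changes in MDSC and TAM had a Pearson correlation of -0.11 and a Spearman correlation of 0.02, and 23 members were above 0 in MDSC and below 0 in TAM.

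The difference between the genotype effects, TAM minus MDSC, was then tested as an interaction over all 10 libraries. It used the same libraries as the tests above. The fit shared its estimate of spread between the cell types. The biological coefficient of variation was 0.141 in this fit, against 0.189 in MDSC and 0.0595 in TAM. For Mrps6 its standard error, 0.29, was below the 0.33 of the MDSC effect alone, so the spread in MDSC may be understated. The interaction passed for 7 of 78 members, all with the more negative change in TAM. Of all 16581 genes, 12.7% were called lower and 12.2% higher, 24.9% in all, so the members were called less often than all genes tested. Of the cytosolic ribosomal protein genes 10 of 76 were called lower, and of the nuclear oxidative phosphorylation genes 4 of 75, with 0 called higher in either list. The most negative differences were those of Mrps6 (-1.02 ± 0.29), Mrps28 (-0.75 ± 0.24), Mrps35 (-0.68 ± 0.14), Mrpl12 (-0.66 ± 0.17) and Mrpl49 (-0.49 ± 0.12), with adjusted p from 0.00669 to 0.0475 (edgeR). Mrps35 was at 22.1 and 24.4 CPM in MDSC Shp2f/f and 24.1 and 28.9 CPM in MDSC Shp2f/fLysMcre, but at 30.2, 30.8 and 30.3 CPM in TAM Shp2f/f and 24.0, 20.9 and 20.1 CPM in TAM Shp2f/fLysMcre. Mrpl49 was at 22.1, 23.8 and 24.1 CPM in TAM Shp2f/f and 22, 19.9 and 18.3 CPM in TAM Shp2f/fLysMcre, the opposite order to MDSC. At the other end stood Mrpl53 (0.22 ± 1.03), Mrps21 (0.20 ± 0.18), Mrpl4 (0.19 ± 0.08), Mrpl33 (0.14 ± 0.18) and Mrps33 (0.13 ± 0.19), none of which passed. The count was 23 with total-count scaling, 15 with the replicate block, 13 with a stricter filter on low counts and 3 with voom weights. Over all genes the number called lower moved as well, from 2102 to 3122, 2687, 2185 and 1281 in that order. Without TAM Shp2f/f replicate 2 the count was 4 (1633 of all genes). Without TAM Shp2f/fLysMcre replicates 2 and 3 it was 3 and 4 (1505 and 1639 of all genes). Without TAM Shp2f/f replicates 1 and 3 it was 5 and 5 (1628 and 1558 of all genes). Without TAM Shp2f/fLysMcre replicate 1 it was 9 (1718 of all genes). Leaving out an MDSC library left 1 in its group and gave a median of the members of -0.26 to -0.043. The -0.26 was without MDSC Shp2f/fLysMcre replicate 1, beside -0.028 over all genes. The -0.043 was without replicate 2 of that group, beside 0.034 over all genes.

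Between the cell types the members differed in both directions, in Shp2f/f about as often as all genes tested. In Shp2f/f, 26 of 77 were higher in TAM than in MDSC and 33 were lower, beside 40% and 38.8% of 15659 genes, or 59 called beside 78.8% in all (59 members and 80.1% of genes at an unadjusted p under 0.05). The median log2 fold change was -0.05 with 44 members below 0, beside 49.6% of genes. The libraries did not overlap in 26 members higher and 35 lower in TAM, beside 43.7% and 42.4% of genes. Mrps6 differed most upward, at 3.80 and 4.36 CPM in MDSC and 17.6 to 18 CPM in TAM, a log2 fold change of 2.12 ± 0.09 (adjusted p = 1.55e-08, edgeR). The next were Mrpl12 (0.84 ± 0.06), Mrps22 (0.79 ± 0.07), Mrps18b (0.73 ± 0.07) and Mrpl3 (0.73 ± 0.06). Mrpl33 differed most downward, at 122 and 145 CPM in MDSC and 34.4 to 37.0 CPM in TAM, a log2 fold change of -1.89 ± 0.07 (adjusted p = 9.18e-09, edgeR). Mrpl4 (-0.94 ± 0.05), Mrps21 (-0.75 ± 0.09), Mrpl58 (-0.75 ± 0.07) and Mrps12 (-0.70 ± 0.08) followed. The cell type and its organ of origin, spleen or tumor, cannot be told apart.

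In Shp2f/fLysMcre, 9 members were higher in TAM and 32 lower, beside 29.8% and 33.7% of 15741 genes, or 41 called beside 63.5% in all (45 members and 67.4% of genes at an unadjusted p under 0.05). The median was -0.23 against -0.05 over all genes, with 55 members below 0 beside 52.3% of genes. The libraries did not overlap in 13 members higher and 39 lower in TAM, beside 36.9% and 40.8% of genes. Scaling by total counts gave 2 higher and 46 lower (3701 and 6552 of all genes). Offsets for GC content and length gave 16 and 30 (4735 and 5613 of all genes), so the split depended on the scaling. With the replicate number as a block, 2 were higher and 11 lower (3259 and 3544 of all genes). These were all among the 41, although the numbers were not shown to pair the libraries. Without TAM Shp2f/fLysMcre replicate 1, 3 members were higher (3937 of all genes). Without replicate 2 of that group, 2 were higher and 19 lower (3735 and 4078), and without replicate 3, 20 were lower (4366). Over all genes the main fit called 4689 higher and 5301 lower. Without MDSC Shp2f/fLysMcre replicate 2, which left 1 MDSC library, the median was -0.13. Mrps6 was again highest, at 3.33 and 6.24 CPM in MDSC and 9.63 to 11 CPM in TAM, with 1.11 ± 0.28. Mrpl3 (0.65 ± 0.08), Mrps18b (0.48 ± 0.12), Mrpl47 (0.45 ± 0.13) and Mrps22 (0.38 ± 0.11) followed. Mrpl33 was again lowest (-1.74 ± 0.14), followed by Mrps12 (-0.94 ± 0.17), Mrps15 (-0.81 ± 0.14), Mrpl34 (-0.77 ± 0.12) and Mrpl58 (-0.75 ± 0.16).

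**Figure D5:**
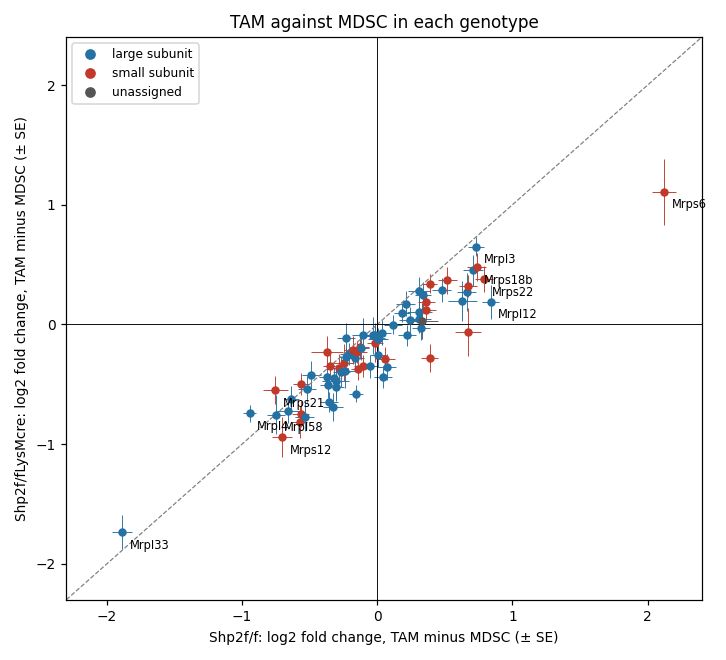
Log2 fold change of TAM minus MDSC for each member (points with bars of 1 SE) in Shp2f/f (x axis) and in Shp2f/fLysMcre (y axis), with the line of equal values dashed and the subunit class in color; the axes share no library. Mrps6 is the highest member on both axes (2.12 and 1.11) and Mrpl33 the lowest (-1.89 and -1.74).

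Levels were compared between members per kilobase of exon, counting all annotated exon bases of a gene and not the length of the transcript in use. Averaged over the 4 groups, Mrpl52 was highest at 70.3 CPM per kilobase, followed by Mrpl54 (45.8), Mrps21 (45.8), Mrpl18 (42.4) and Mrpl12 (41.0). Mrpl52 led in each group, at 81.7 and 67.5 CPM per kilobase in MDSC Shp2f/f and Shp2f/fLysMcre and 69.7 and 62.1 in TAM. Mrpl12 rose in the order from 32.1 CPM per kilobase in MDSC Shp2f/f to 57.5 in TAM Shp2f/f, where it was second. Lowest were Mrpl53 (0.247), Mrpl23 (1.21), Mrps10 (2.27), Mrps35 (2.95) and Mrpl47 (3.21). The order depends on the annotated length, which is 8631 bases for Mrps35 and 8079 for Mrps10 but 825 for Mrpl54 and 739 for Mrps21. Mrpl53 had 1 to 13 counts per library and was the only member that failed the filter in TAM, and 88% of its exon bases are shared with the gene model Gm42688. Its value is therefore uncertain, as are those of other members that share many exon bases on the same strand, Mrps34 (37% with Nme3) and Mrps24 (15.4% with Urgcp). On the opposite strand 28 members share exon bases with another gene, Mrps25 the most (69.8%, with Nr2c2). The 5 pseudogenes of the family had 0 to 90 counts over the 10 libraries.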

How the data were processed

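The authors made stranded poly(A) libraries, trimmed reads with cutadapt 2.5, aligned them to GRCm38 with STAR 2.7.3a and counted Ensembl genes with featureCounts (Subread 1.6.2). They deposited raw counts per gene, which were used here. A table normalized by the authors was not used. Whether counting used the strand is not given in the sources used here. Biotypes and exons came from GENCODE M21, which matched 99.7% of the identifiers.

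Counts were tested across all genes kept by filterByExpr (minimum count 10) with TMM scaling and the quasi-likelihood F test of edgeR 4.0.16 in R 4.3.3, adjusted by the Benjamini-Hochberg method and called under 0.05. Fits used the 4 MDSC, the 6 TAM, all 10, or the 5 libraries of a genotype. A standard error is the log2 fold change divided by the square root of F. Single levels are CPM with TMM over 10 libraries and sums are CPM of the total count. Standard errors cover the spread between libraries, and Mrpl53 is also limited by counting error.

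The members and lists were chosen with earlier results of these data known. Named were Mrps18a, Mrps18b, Mrps18c, Mrpl12, Mrpl58, Mrps12 and Mrps36, the 8 highest and 8 lowest members of each genotype comparison, the 5 highest and 5 lowest of the others and of the level per kilobase, the member that failed the filter, mitochondrial ribosomal proteins with other symbols, Ptpn11 and Lyz2. Genes of other lists, Slc5a3 and members named for shared exons, motifs or position were picked after their values were seen. Replicates differed by more than counting noise (chi-square per degree of freedom 4.46 to 58.1). The methods were tested on simulated data. Alternatives were DESeq2 1.42.0, its size factors, total-count scaling, other filters, a replicate block, limma 3.58.1 voom weights and leaving out each library. Offsets for GC content and length were added after seeing the data.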

Additional observations from a re-analysis of the deposited data

Results flagged for a closer look

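The genotype effect was called different between TAM and MDSC for 7 of 78 members (8.97%) by the interaction test over 10 libraries (edgeR). The fit shared its estimate of spread between the cell types. All 7 were called lower. This share was below that of all 16581 genes, of which 12.7% were called lower and 12.2% higher, 24.9% in all. The differences, TAM minus MDSC on the log2 scale, were -1.02 ± 0.29 (SE) for Mrps6 (adjusted p = 0.0308), -0.75 ± 0.24 for Mrps28 (0.0475), -0.68 ± 0.14 for Mrps35 (0.00669), -0.66 ± 0.17 for Mrpl12 (0.0196), -0.49 ± 0.12 for Mrpl49 (0.0158), -0.43 ± 0.10 for Mrpl18 (0.00991) and -0.42 ± 0.12 for Mrps22 (0.0348). For Mrpl49 and Mrpl18 the genotypes did not overlap in MDSC, with both Shp2f/fLysMcre libraries the higher, while for Mrps6 and Mrps28 they overlapped. With weights per cell type (limma voom), 3 of the 7 were called.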

How the results depend on the processing

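The fall of the members in TAM held in direction, with 46 (DESeq2) to 74 (total counts) called, and 48 to 65 without 1 library. Over all genes, 3051 (DESeq2) and 5225 (total counts) were called lower, beside 3805 in the main fit, and 3223 to 3820 without 1 library. Scaling by total counts shifted the median of all genes to -0.11 in TAM, -0.18 in the interaction and -0.26 between the cell types of Shp2f/fLysMcre, and that of the members to -0.34, -0.32 and -0.44; relative to all genes the members stayed at -0.23 in TAM. The interaction called 23 members lower with total counts (3122 of all genes) and 13 with a stricter filter (2185). It called 15 lower with the replicate block (2687) and 3 with voom weights (1281), beside 2102 genes in the main fit. With the offsets for GC content and length it called 2 members higher (2569 of all genes, beside 2030). TAM minus MDSC in Shp2f/fLysMcre called 2 members higher with total counts, 16 with the offsets, and 2 higher and 11 lower with the replicate block. The replicate numbers were not shown to pair the samples. Correlations of same-numbered deviations were -0.083 to 0.064 in TAM, 0.17 in MDSC (a single value for 2 pairs) and -0.15 to 0.026 between the cell types. With 2 or 3 libraries per group, such values cannot decide whether the numbers pair libraries. The block left 58 members called lower in TAM and 0 in MDSC. Over all genes in MDSC it called 1870 higher and 804 lower, beside 556 and 77 without it. Why these counts moved was not tested. Values near 0 changed sign without being called. These were Mrps18c in MDSC (-0.00634 with DESeq2, -0.00629 with its size factors, -0.0083 without a filter), Mrps24 in TAM (0.0096 and 0.0094 with the same), Mrps12 in MDSC (0.021) and Mrps33 (-0.041) and Mrpl33 (-0.034) in the interaction with total counts, and, with the offsets, Mrps18a in MDSC (-0.0058) and Mrpl24 (0.019), Mrps21 (0.076), Mrps24 (0.039) and Aurkaip1 (0.0075) in TAM. Leaving out 1 library, where a lone MDSC sample is assumed to vary like the others, gave 0 to 7 members called lower in MDSC, 7 without Shp2f/fLysMcre replicate 2, and a median of -0.16 to 0.026 there. In MDSC the ranges were -0.28 to 0.55 for Mrpl53, -0.058 to 0.31 for Mrps15, -0.14 to 0.48 for Mrps28, -0.29 to 0.57 for Mrps6, -0.011 to 0.42 for Mrpl13, -0.11 to 0.14 for Mrps18a, -0.20 to 0.17 for Mrps18c, -0.11 to 0.28 for Mrpl12, -0.39 to 0.019 for Mrpl58, -0.34 to 0.19 for Mrps12 and -0.037 to 0.17 for Mrps36. In TAM they were -0.056 to 0.014 for Mrpl33, -0.10 to 0.034 for Mrps21, -0.034 to 0.030 for Mrps24 and -0.068 to 0.016 for Aurkaip1. The interaction gave 0 to 1 member higher, 1 to 22 lower and a median of -0.26 to -0.043, with Mrpl33 at -0.059 to 0.39 and Mrpl53 at -0.21 to 1.33. TAM minus MDSC gave a median of -0.14 to 0.015 in Shp2f/f, and 2 to 16 members higher and 19 to 45 lower in Shp2f/fLysMcre. Counts called without 1 MDSC library rest on a lone library in its group, so no conclusion is drawn from them. The numbers of all genes called moved in these fits as well. With 2 libraries per genotype, MDSC limits what small changes can be seen.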
